A study of Mus musculus with 20 samples.

Results

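Elastic fibres give the aortic wall its recoil. Each has a core of crosslinked elastin laid down on a scaffold of microfibrils, and 10 genes of this system are described here across the comparisons of an aortic RNA sequencing study. They were chosen by name, with earlier results of these data known. Eln encodes tropoelastin, the soluble elastin precursor. Fbn1 encodes fibrillin-1, the backbone of the microfibril, and Mfap2 and Mfap5 encode small glycoproteins bound to it. Mfap4, Fbln5, Fbln2 and Emilin1 encode proteins that bind tropoelastin or microfibrils during assembly. Lox and Loxl1 encode copper-dependent oxidases that crosslink elastin, and Lox also crosslinks collagen. In the mammalian aorta most elastin is made before adulthood by smooth muscle cells, with adventitial fibroblasts adding microfibrils, and the finished fibres turn over slowly.

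The samples were aortas of female mice in 4 groups of 5 libraries: KO aged, WT aged, KO young and WT young. KO stands for animals labelled Knockdown-KO and, in the design text, Nckx4-/-, a deficiency of Slc24a4, the gene for a potassium-dependent sodium/calcium exchanger, and WT for Wild-type animals. Aged mice were 72 to 78 weeks old and young mice 12 to 15 weeks old, each library pooled the cleaned aortas of 2 mice, and no strain, promoter or Cre is given in the labels. The values are those of 3 tables of called genes made by the authors, which together list 3696 genes and set WT aged against WT young, KO young against WT aged, and KO aged against KO young. A gene is called here when its adjusted p is under 0.05. A gene that is not listed was not called, and whether it had been tested is not known. The counts of single libraries were not analysed here, and the spread within a group is known only through the standard error (SE) and p of each fold change. Group means given below were computed from the mean normalized count and the log2 fold change of the authors' deposited table and carry no error of their own. The deposited fold changes are shrunken towards 0, by amounts that differ between genes. The group means, ratios, intervals and sums of fold changes below inherit this.

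Slc24a4 itself was listed in 1 of the tables, with a log2 fold change of -2.00 (SE 0.46, adjusted p = 1.4e-05) for WT aged over WT young in the authors' deposited table. It was listed in neither table with a KO group. The loss of its RNA in KO aorta can therefore not be read from these tables, and KO stands for the libraries labelled so. Of 10 smooth muscle markers, 1, 3 and 3 were called in WT ageing, in KO young against WT aged and in KO ageing, so the tissue label cannot be checked beyond them. Mylk, encoding the myosin light chain kinase of smooth muscle, was among those listed, at 69085 mean normalized counts in the KO young against WT aged authors' deposited table. None of 11 macrophage markers was listed in any table.

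Of the 10 elastic fibre genes, 8 were listed at least once. Over all genes 3696 were listed at least once, with 14374 to 14661 genes tested per comparison. Mfap2 was listed in all 3 tables. Eln, Fbn1, Fbln5, Mfap4 and Mfap5 were listed in 2, and Lox and Loxl1 in 1. Fbln2 and Emilin1 were listed in none. Each member listed in an ageing table was lower there in aged than in young aorta, and each listed for KO young against WT aged was higher in KO young aorta. Lox was listed in neither ageing table, and Loxl1, Fbln2 and Emilin1 were not listed for KO young against WT aged. The KO young against WT aged comparison shares a group of libraries with each ageing comparison, so its direction is not a separate observation.

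For 5 of the 10 genes a promoter window is in the RefSeq table (GRCm38.p6), running from 250 bases before to 50 bases after an annotated start. The windows of Fbn1, Fbln5 and Mfap2 are shown because these genes were called both in KO ageing and in KO young against WT aged. Eln was called in both as well but has no window there. Fbln5 and Mfap2 have 2 annotated starts each, and the window shown is the one that held motif matches. Capitals mark GC boxes (GGGCGG on either strand), and the windows are chr2:125506389-125506688 on the minus strand, chr12:101819070-101819369 on the minus strand and chr4:141010431-141010730 on the plus strand.
Fbn1: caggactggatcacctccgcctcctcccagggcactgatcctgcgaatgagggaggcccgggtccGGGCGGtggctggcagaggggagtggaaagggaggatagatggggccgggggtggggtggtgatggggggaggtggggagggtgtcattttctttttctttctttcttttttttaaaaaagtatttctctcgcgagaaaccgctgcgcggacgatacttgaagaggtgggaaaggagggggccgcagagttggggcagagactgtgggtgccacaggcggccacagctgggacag
Fbln5: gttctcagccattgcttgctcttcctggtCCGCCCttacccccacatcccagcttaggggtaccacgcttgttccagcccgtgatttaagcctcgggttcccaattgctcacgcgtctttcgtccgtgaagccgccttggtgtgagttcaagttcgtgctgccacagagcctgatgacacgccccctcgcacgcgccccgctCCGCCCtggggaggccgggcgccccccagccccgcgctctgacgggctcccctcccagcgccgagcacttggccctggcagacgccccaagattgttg
Mfap2: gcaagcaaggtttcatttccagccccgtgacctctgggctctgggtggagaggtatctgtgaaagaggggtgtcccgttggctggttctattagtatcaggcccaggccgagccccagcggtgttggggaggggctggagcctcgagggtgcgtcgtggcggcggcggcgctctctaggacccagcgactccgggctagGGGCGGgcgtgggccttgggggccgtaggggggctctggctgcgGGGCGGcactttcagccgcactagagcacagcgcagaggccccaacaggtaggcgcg
The Fbn1 window held 1 GC box, and those of Fbln5 and Mfap2 held 2 each. Across all 32851 windows of the table, 35.7% held at least 1. A second annotated start of Fbln5 and of Mfap2, and the window of Emilin1, held no match to any motif searched. The window of Fbln2 held 2 GC boxes. The other motifs searched on both strands were the TATA box (TATAAA, in 13.6% of all windows), the AP-1 site (TGANTCA, 7.81%) and the CArG box (1.63%), and none was found in the 7 windows of these 5 genes. The motifs do not overlap one another in these windows. The GC content of the 3 windows shown was 60.3% for Fbn1, 65.7% for Fbln5 and 68% for Mfap2, against a median of 52.7% over all windows. The windows of the second start, not shown, had 48.7% for Fbln5 and 52% for Mfap2.

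The first comparison asked what differed in WT aorta with age. Aged WT aorta had less RNA of 3 microfibril-associated genes and slightly less of 1 crosslinking enzyme. Of the 10 members 4 were called, all lower in WT aged aorta, where 12.0% of 14374 tested genes were called, that is 6.76% as lower and 5.26% as higher. Their median log2 fold change was -0.86, against -0.35 over the 972 genes called lower. Elastin and fibrillin-1 were not among them.

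Mfap5, encoding the microfibril glycoprotein MAGP-2, fell the furthest of the 4. Its group means were 2647 normalized counts in WT aged and 6700 in WT young aorta. The authors' deposited table gave a log2 fold change of -1.34 (SE 0.11, adjusted p = 9.87e-34), which is 0.395 of the young level with a 95% interval from 0.339 to 0.460. By adjusted p it held rank 6 among all 1728 genes called in WT ageing.

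Mfap4, whose product binds tropoelastin and fibrillin, had group means of 5761 normalized counts in WT aged and 10976 in WT young aorta. Its log2 fold change in the authors' deposited table was -0.93 (SE 0.25, adjusted p = 6.44e-05). The 95% interval of the ratio ran from 0.375 to 0.735, wider than for Mfap5. Mfap2, encoding MAGP-1, was at 180.2 normalized counts in WT aged against 309.4 in WT young aorta, and the authors' deposited table gave -0.78 (SE 0.21, adjusted p = 0.000202). Loxl1, the oxidase that Fbln5 is known to bring to elastin, was at 10043 normalized counts in WT aged and 11457 in WT young aorta. Its level thus fell by 12.3%, with a log2 fold change of -0.19 (SE 0.08, adjusted p = 0.0318) in the authors' deposited table. Its interval, from -0.34 to -0.04, does not overlap those of the microfibril-associated genes, of which the nearest is that of Mfap2, from -1.19 to -0.37.

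**Figure D1:**
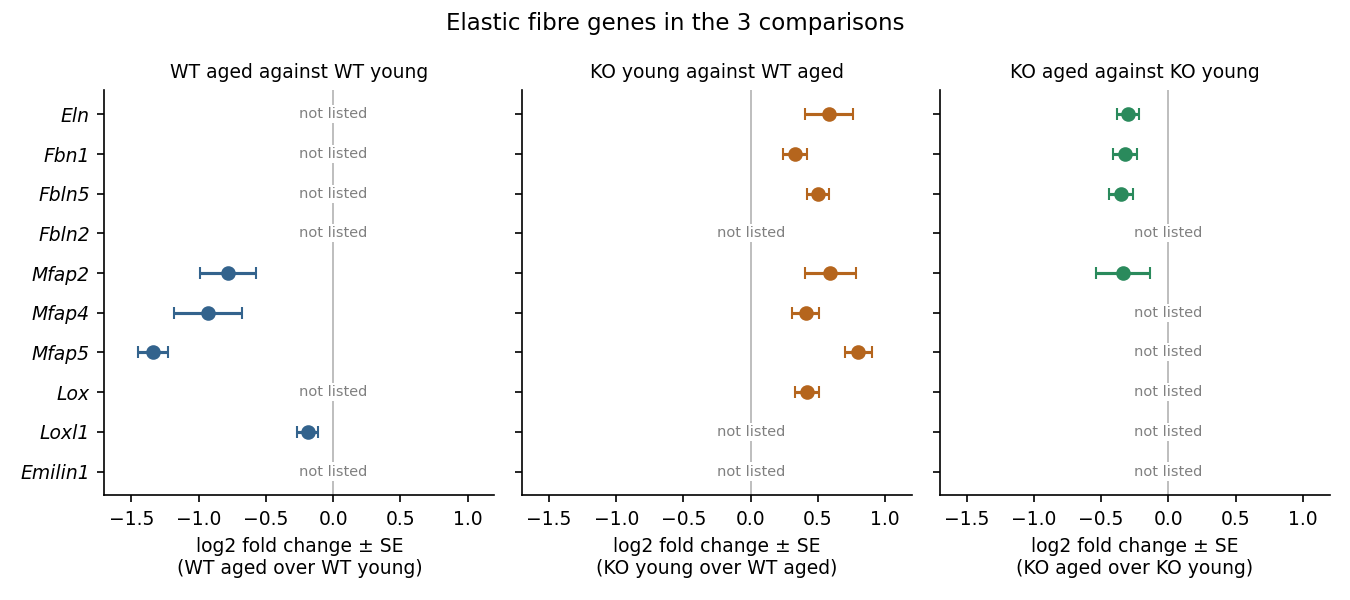
Log2 fold change with its SE for each of the 10 genes in each of the 3 comparisons, positive when the group named in front is higher; genes absent from a table are marked as not listed. All values in both ageing panels lie below 0 and all values for KO young over WT aged above 0, from -1.34 for Mfap5 in WT ageing to 0.80 for Mfap5 in KO young over WT aged.

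Other called genes of the microfibril went the same way in WT ageing. Of 14 further microfibril genes 5 were called and all 5 were lower. Their median log2 fold change was -0.27, against -0.35 over the 972 genes called lower. Thsd4, whose product promotes fibrillin-1 assembly, had -0.40 (SE 0.07, adjusted p = 2.72e-08) in the authors' deposited table. The fibrillin-binding ADAMTS genes Adamts17 and Adamts10 stood at -1.64 (SE 0.36) and -0.27 (SE 0.06) in the authors' deposited table. The latent TGF-beta binding protein genes Ltbp3 (-0.21) and Ltbp4 (-0.16) were also lower there, per the authors' deposited table. Ltbp4 is known to guide elastin deposition together with Fbln5. The other fibulins and related genes moved both ways, 2 higher and 1 lower of 11. The fibulin gene Fbln1 had -0.47 (SE 0.12), Efemp1, encoding fibulin-3, had 0.48 (SE 0.19), and the hemicentin gene Hmcn2 had 0.61 (SE 0.25) in the authors' deposited table. Of 9 further crosslinking genes only Postn was called, at -0.33 (SE 0.10), and of 9 elastin-degrading enzymes only the cathepsin gene Ctsl, at -0.21 (SE 0.08), in the authors' deposited table.

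Fibroblast markers moved with the members. Of 10 such markers 5 were called in WT ageing and all 5 were lower. Summed over these 5, the group means were 183395 normalized counts in WT aged and 318990 in WT young aorta, most of it from Col1a1 and Col1a2. The sums for marker lists here and below cover called genes only. Where all of these were called in the same direction, the sum goes that way by how it was made. The collagen genes Col1a1 and Col1a2 had -0.95 (SE 0.34) and -0.74 (SE 0.21), and Serpinf1 had -0.44 (SE 0.09), in the authors' deposited table. Of 10 smooth muscle markers only Des was called, at 0.39 (SE 0.12) in the authors' deposited table. The adipocyte markers Cfd (0.89, SE 0.35) and Cidec (0.45, SE 0.17), 2 of 10 on that list, were higher per the authors' deposited table. Of 10 endothelial markers 0 were called by the authors' test, and no p-values are given for genes not called. The Schwann cell list had 1 of 8 called, Pmp22, at -0.54 (SE 0.07) in the authors' deposited table. Of 10 immediate early genes, whose transcription reacts quickly to stimuli and to tissue handling, 4 were called and all 4 were lower. Their summed group means were 20360 normalized counts in WT aged and 34914 in WT young aorta, and the authors' deposited table gave -2.20 (SE 0.76) for Atf3 and -1.02 (SE 0.33) for Jun. The part of all these markers in the lower values of Mfap2, Mfap4 and Mfap5 was not tested. In bulk tissue fewer cells of a type and less RNA per cell cannot be told apart.

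Next, aortas of KO young mice were set against those of WT aged mice, a contrast in which genotype and age differ at once and cannot be told apart. KO young aorta had more RNA for elastin, for fibrillin-1, for the assembly protein fibulin-5, for 3 microfibril-associated proteins and for lysyl oxidase. Of the 10 members 7 were called, all higher in KO young aorta, where 7.78% of 14661 tested genes were called, that is 4.08% as higher and 3.70% as lower. The median log2 fold change of the 7 was 0.50, against 0.40 over the 598 genes called higher.

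Elastin RNA had a group mean of 146326 normalized counts in KO young and 97886 in WT aged aorta. The ratio was 1.49, with a 95% interval from 1.17 to 1.90, and the authors' deposited table gave a log2 fold change of 0.58 (SE 0.18, adjusted p = 0.00214). Per kilobase of annotated exon, Eln had 15078 mean normalized counts and held rank 3 among the 1110 called genes with an exon length. The other called members ranged on that scale from 196.4 for Mfap2 to 3371 for Mfap4.

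Fbn1 had group means of 35016 normalized counts in KO young and 27857 in WT aged aorta. The log2 fold change in the authors' deposited table was 0.33 (SE 0.09, adjusted p = 0.00159), the smallest of the 7. Among the genes for proteins bound to the microfibril, Mfap5 had 4672 normalized counts in KO young and 2683 in WT aged aorta. Its log2 fold change of 0.80 (SE 0.10, adjusted p = 1.87e-14) in the authors' deposited table was the largest among the members. Mfap2 was at 285.8 normalized counts in KO young against 189.9 in WT aged aorta, with 0.59 (SE 0.19, adjusted p = 0.00201) in the authors' deposited table. For Mfap4 the group means were 7393 and 5564 normalized counts in KO young and WT aged aorta, and the authors' deposited table gave 0.41 (SE 0.10, adjusted p = 8.8e-05). The 95% intervals of the log2 fold change were 0.60 to 1.00 for Mfap5, 0.21 to 0.97 for Mfap2 and 0.21 to 0.61 for Mfap4, so neighbours in this order overlap.

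Lox, the main lysyl oxidase of the arterial wall, had 8200 normalized counts in KO young and 6129 in WT aged aorta, and 0.42 (SE 0.09, adjusted p = 1.52e-05) in the authors' deposited table. Its relative Loxl1, lower in WT ageing, was not listed here. Of the other crosslinking genes, 0 of 9 were called by the authors' test, and no p-values are given for genes not called.

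Fbln5, which tethers elastin to microfibrils and to cells, had group means of 25428 normalized counts in KO young and 17980 in WT aged aorta. The authors' deposited table gave a log2 fold change of 0.50 (SE 0.08, adjusted p = 3.89e-08). Fbln5 lies on chromosome 12 with 4 protein-coding genes between it and Slc24a4 in the GRCm38.p6 gene order. Of the 18 protein-coding genes nearest to Slc24a4 in order, 9 on each side, 3 were called in KO young against WT aged. Besides Fbln5 these were Ccdc88c at 0.50 (SE 0.09) and the respiratory chain gene Ndufb1 at -0.28 (SE 0.10) in the authors' deposited table. In KO ageing, where both groups carry the KO label, 4 of the 18 were called: Fbln5, Ccdc88c and Tc2n were lower, and the authors' deposited table gave 0.75 (SE 0.10) for Rin3. In WT ageing 1 of the 18 was called, Ccdc88c at -1.08 (SE 0.12) in the authors' deposited table, and Fbln5 was not listed. Over all tested genes 7.78% were called in KO young against WT aged, 14.4% in KO ageing and 12.0% in WT ageing. The part of the position of Fbln5 in its values was not tested.

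**Figure D2:**
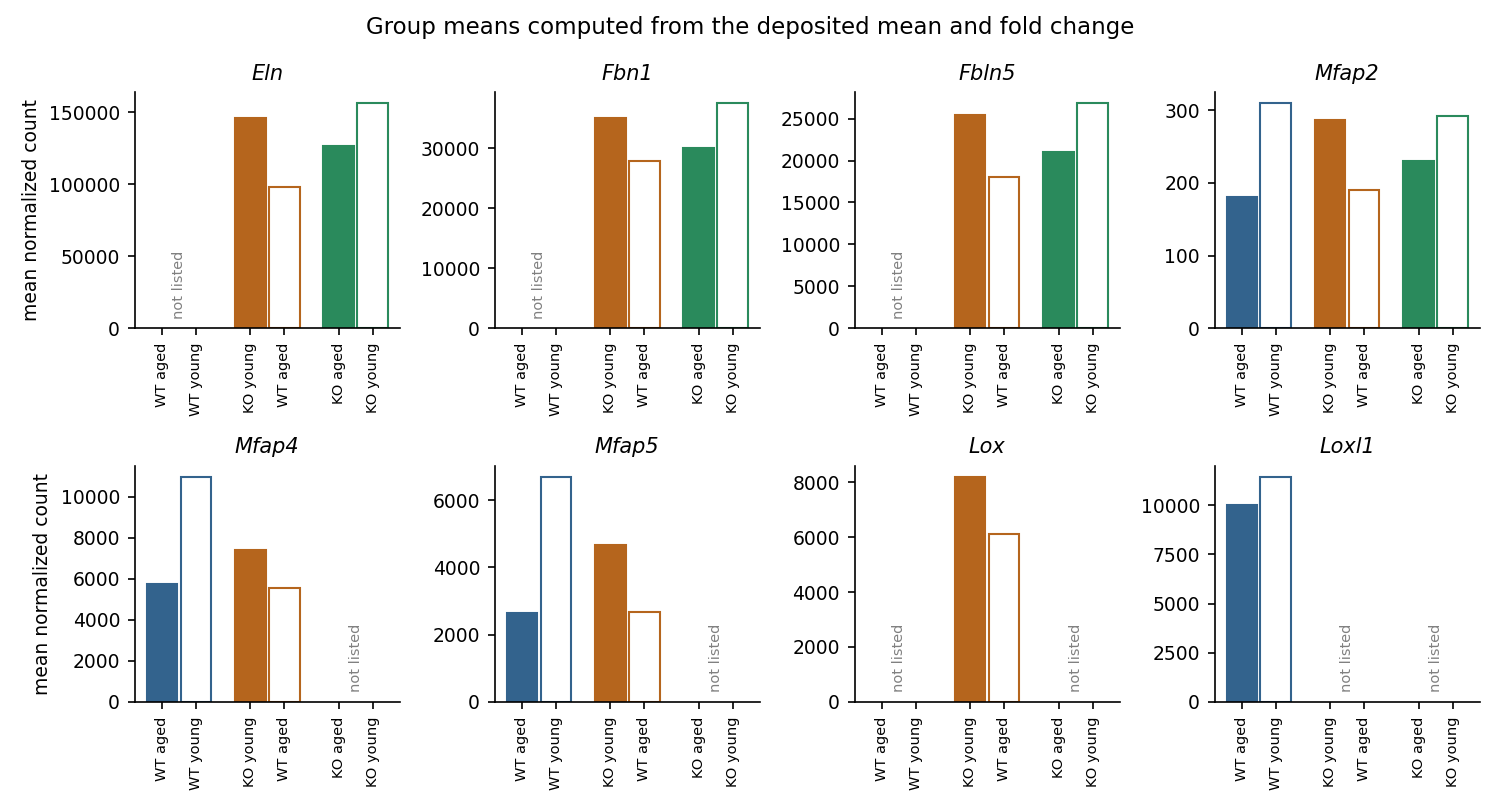
Group means in normalized counts for the 8 listed genes, computed from the deposited mean and fold change; in each pair the filled bar is the group named first in the comparison and the open bar the group it is set against, and pairs come from tables normalized separately. Mfap2 stands at 180.2 in WT aged against 309.4 in WT young, 285.8 in KO young against 189.9 in WT aged, and 230.7 in KO aged against 292.0 in KO young aorta.

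Of 14 other microfibril genes 2 were higher and 1 lower. Adamts6, a protease gene of the ADAMTS family, had 0.57 (SE 0.07) and Ltbp3 had 0.19 (SE 0.07), while Adamtsl2, whose product binds fibrillin-1, had -0.94 (SE 0.17) in the authors' deposited table. In the group of other fibulins and related genes Hmcn1 (0.46, SE 0.14) and Mmrn1 (0.59, SE 0.24) were higher while the authors' deposited table had Mmrn2 lower (-0.37, SE 0.16). Mmp2, a gelatinase gene and the only elastin-degrading enzyme called, had 0.28 (SE 0.09) in the authors' deposited table.

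Some markers were called here too, beside 7.78% of all tested genes. All 3 called fibroblast markers of 10 were higher in KO young aorta: Col1a2 (0.24, SE 0.09), Dpt (0.20, SE 0.08) and Serpinf1 (0.22, SE 0.10) in the authors' deposited table. Their summed group means were 118466 normalized counts in KO young and 100498 in WT aged aorta. Of the smooth muscle markers Synpo2 was higher (0.27) and Mylk and Smtn lower (both -0.20) in the authors' deposited table. Endothelial markers moved both ways, with 5 of 10 called. Nos3, encoding the endothelial nitric oxide synthase, had -0.71 (SE 0.15), Vwf -0.62 (SE 0.34), Tek -0.37 (SE 0.17), Egfl7 0.48 (SE 0.13) and Kdr 0.36 (SE 0.15) in the authors' deposited table. The adipocyte list had 1 of 10 called, Cidec at -0.56 (SE 0.16), and the Schwann cell list 1 of 8, Pmp22 at 0.25 (SE 0.10), in the authors' deposited table. All 10 genes of the immediate early class were higher in KO young aorta. Their summed group means were 119710 normalized counts in KO young and 36863 in WT aged aorta. The part of these markers in the members' values was not tested.

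The third comparison asked what differed in KO aorta with age. Aged KO aorta had less RNA for elastin, fibrillin-1, fibulin-5 and MAGP-1, each at between 0.785 and 0.812 of its KO young level. Of the 10 members 4 were called, all lower in KO aged aorta, where 14.4% of 14477 tested genes were called, that is 6.68% as lower and 7.71% as higher. Their log2 fold changes lay between -0.35 and -0.30, and their median of -0.33 is close to the -0.34 over the 967 genes called lower.

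Eln had group means of 126945 normalized counts in KO aged and 156288 in KO young aorta, and so fell by 18.8%. The authors' deposited table gave a log2 fold change of -0.30 (SE 0.08, adjusted p = 0.000335). Fbn1 was at 30072 normalized counts in KO aged against 37540 in KO young aorta, with -0.32 (SE 0.09, adjusted p = 0.000885) in the authors' deposited table. For Fbln5 the group means were 21046 normalized counts in KO aged and 26825 in KO young aorta, and the authors' deposited table gave -0.35 (SE 0.09, adjusted p = 0.000323). The 95% intervals of these 3 log2 fold changes, -0.45 to -0.15, -0.49 to -0.15 and -0.53 to -0.17, overlap almost wholly.

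Mfap2 was at 230.7 normalized counts in KO aged and 292.0 in KO young aorta. Its log2 fold change of -0.34 (SE 0.20, adjusted p = 0.0454) in the authors' deposited table had a 95% interval from -0.74 to 0.06. The deposited fold changes are shrunken towards 0, and for Mfap2 here the ratio of fold change to SE is 0.616 of what its p implies, the lowest such ratio among the 15 values of the members. Mfap4, Mfap5, Lox and Loxl1 were not listed in KO ageing.

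**Figure D3:**
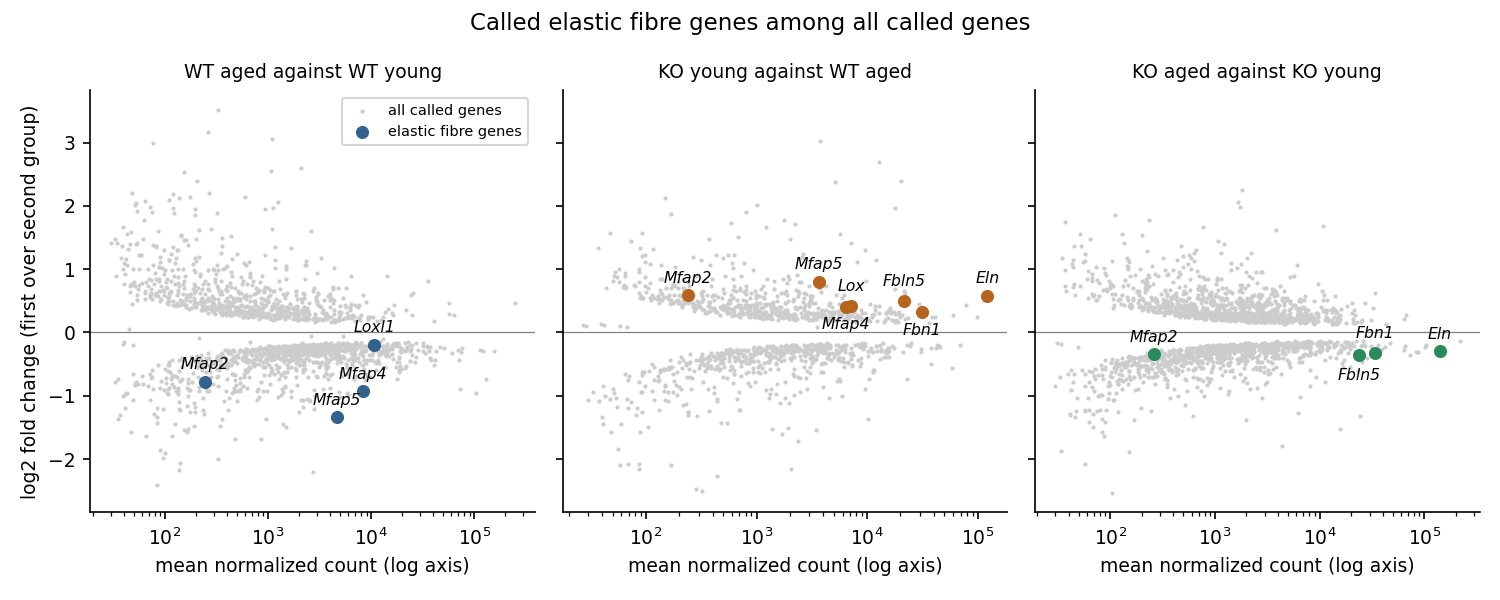
Log2 fold change of each called gene (first over second group of the comparison) against its mean normalized count on a log axis, with all called genes as small grey points and elastic fibre genes as large named points. Mfap5 and Mfap4 lie at -1.34 and -0.93 in WT ageing, while Eln, Fbn1, Fbln5 and Mfap2 lie between -0.35 and -0.30 in KO ageing.

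Of the 14 other microfibril genes 4 were lower and 1 higher in aged KO aorta. Adamts6 had -0.64 (SE 0.07), Ltbp2 -0.23 (SE 0.08), Ltbp3 and Adamts10 both -0.15, and Adamtsl2 1.67 (SE 0.15) in the authors' deposited table. No other fibulin or related gene of 11 was called. Atp7a, the copper transporter gene that supplies lysyl oxidases, was the only further crosslinking gene called, at 0.22 (SE 0.09) in the authors' deposited table. For Mmp2 the authors' deposited table gave -0.31 (SE 0.10).

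In KO ageing 2 fibroblast markers were lower, Col1a1 (-0.35, SE 0.16) and Col1a2 (-0.23, SE 0.08), while the authors' deposited table had Dpep1 higher (0.42, SE 0.12). Summed over these 3, the group means were 159912 normalized counts in KO aged and 193169 in KO young aorta. Of the smooth muscle markers Lmod1 (-0.32) and Synpo2 (-0.21) were lower and Myocd (0.58), encoding a coactivator of smooth muscle genes, stood above 0 in the authors' deposited table. Of 10 endothelial markers 3 were called, Egfl7 (-0.60, SE 0.11) and the tight junction gene Cldn5 (-0.67, SE 0.23) as lower and Nos3 (0.50, SE 0.13) as higher in the authors' deposited table. Of 10 adipocyte markers Ucp1, the uncoupling protein gene of brown fat, was called at 1.62 (SE 0.45) in the authors' deposited table, with group means of 5762 normalized counts in KO aged and 1875 in KO young aorta. The Schwann cell list had S100b at 0.36 (SE 0.21) and Pmp22 at -0.24 (SE 0.10) in the authors' deposited table. The immediate early class had 8 of 10 called and all 8 were lower, with summed group means of 46425 normalized counts in KO aged and 90517 in KO young aorta. The part of these markers in the lower elastin, fibrillin-1 and fibulin-5 values was not tested.

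**Figure D4:**
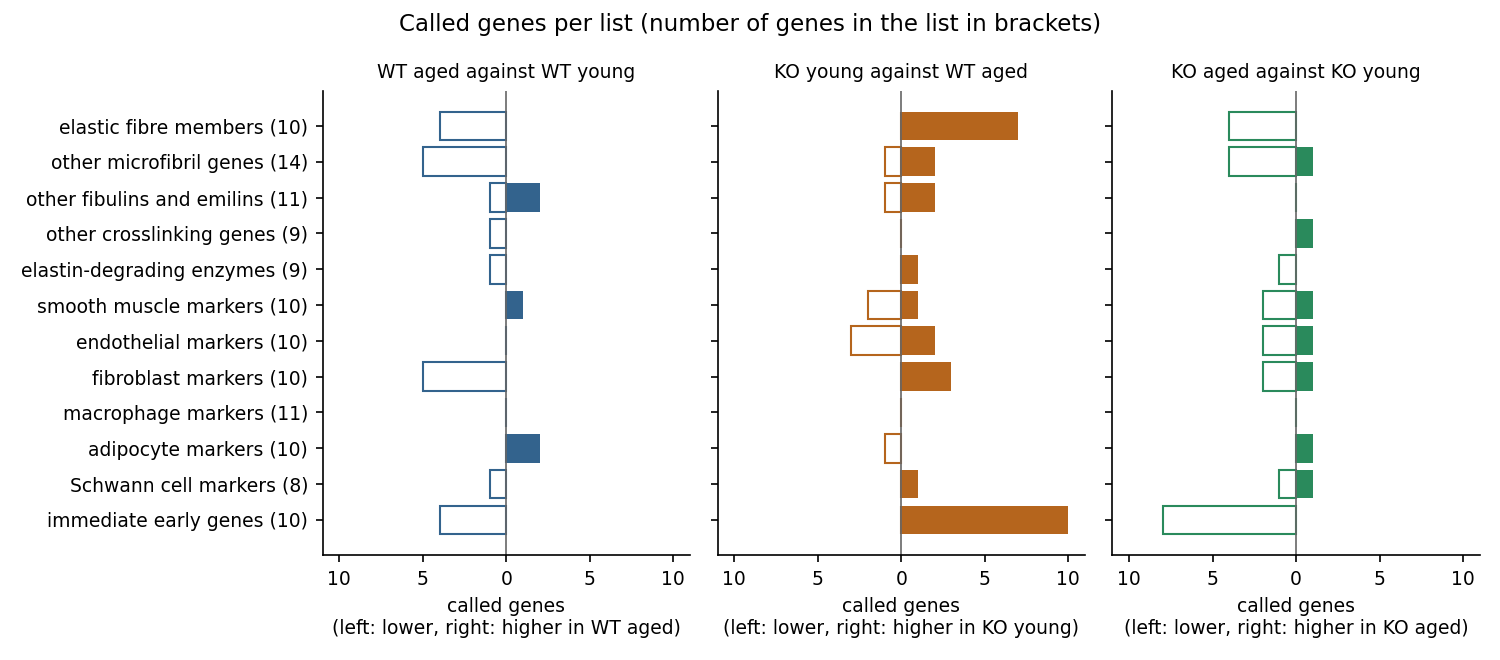
Number of called genes in each list for the 3 comparisons, with genes higher in the group named first to the right of 0 and genes lower in it to the left. Elastic fibre members gave 4 lower, 7 higher and 4 lower, fibroblast markers 5 lower, 3 higher, and 2 lower with 1 higher, and immediate early genes 4 lower, 10 higher and 8 lower.

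The ageing comparisons of KO and of WT aorta share no library, so their effects can be set against each other. Of the members, 1 of the 4 called in KO ageing and 1 of the 4 called in WT ageing was called in both, which is 25% of each. Over all genes 438 were called in both, which is 21.0% of the KO ageing list and 25.3% of the WT ageing list. The shared member is Mfap2. Its log2 fold change was -0.34 in KO ageing and -0.78 in WT ageing, a difference of 0.44 (SE 0.29, 95% interval -0.13 to 1.01) computed from both authors' deposited tables. A Wald test of the difference, fitted over the 438 genes with Benjamini-Hochberg adjustment, gave an adjusted p of 0.309, so the difference did not pass 0.05. In the same test 131 of the 438 genes passed. Of the 438, 361 had the same direction in both ageing comparisons, Mfap2 among them. Genes called in opposite directions are likely to pass by the way they entered, so the 131 are no yardstick for Mfap2. For the members called in one genotype only, namely Mfap5, Mfap4 and Loxl1 in WT and Eln, Fbn1 and Fbln5 in KO, the difference between genotypes was not tested, because the other table lists no value.

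Members listed in consecutive tables allow a rough genotype difference at 1 age, as the sum of fold changes, with no test. For KO young minus WT young aorta the log2 sums from the authors' deposited tables were -0.54 for Mfap5, -0.52 for Mfap4 and -0.19 for Mfap2, beside a median of -0.03 over the 398 genes listed in both tables. For KO aged minus WT aged aorta the sums from the authors' deposited tables were 0.28 for Eln, 0.25 for Mfap2, 0.15 for Fbln5 and 0.01 for Fbn1, beside a median of 0.02 over 656 genes. Both medians pool genes that go either way in each step. They are therefore no yardstick for the size of a member's sum. Both steps of each sum share a group of libraries, so the root of their summed squared SEs is not the SE of the sum. This root was 0.15 for Mfap5, 0.27 for Mfap4 and 0.28 for Mfap2 in the young difference. In the aged difference it was 0.19 for Eln, 0.28 for Mfap2, 0.12 for Fbln5 and 0.13 for Fbn1.

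How far the tables can be joined is shown by the group that a pair of tables shares. The WT aged mean of Mfap5 was 2683 normalized counts in the table with KO young and 2647 in the table with WT young. For Mfap4 these were 5564 and 5761, and for Mfap2 189.9 and 180.2. The KO young means of Eln, Fbn1, Fbln5 and Mfap2 were 6.81%, 7.21%, 5.49% and 2.16% higher in the table with KO aged than in the table with WT aged. The median over all 656 shared genes was 4.63% higher.

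Mfap2 was the only member listed in all 3 tables, as were 236 genes in all. By Euclidean distance over its 3 log2 fold changes, the nearest genes were Ephb3, an ephrin receptor gene, at 0.0458, Grb14 at 0.206 and Arl4a at 0.209. Ephb3 had -0.79 in WT ageing, 0.61 in KO young over WT aged and -0.38 in KO ageing in the authors' deposited tables, beside -0.78, 0.59 and -0.34 for Mfap2.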

How the data were processed

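RNA was measured in 20 libraries of mouse aorta. Per the labels' protocols, each pooled tissue of 2 mice and was prepared with a stranded low-input kit. The build GRCm39 and the tools DESeq2 1.42.1, STAR 2.7.11b, MultiQC 1.25.1, featureCounts and Subread 2.0.8 are listed in the submitters' processing notes. What each was used for, and how it was set, is not given in the sources used here.

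Per the file headers, the authors deposited for each called gene the log2 fold change, its SE (a score column), the p-value before and after adjustment, and the mean of normalized counts, a signal averaged by them over both groups. The tests are the authors'. No value per library entered, so depth is unknown, and no model was refitted. How many genes had been tested follows from the top gene, whose adjusted p is its raw p times that number. The p-values measure the spread between pools.

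The direction of the deposited fold changes is not in the headers. It was taken from the group that a pair of tables shares: after centring, the WT aged means differed by a median of 0.0286 on the log2 scale with the aged side positive, against at least 0.185 otherwise, and the KO young means by 0.0353, the next best pairing giving 0.115. Where KO young was compared with WT aged, the deposited positive side was WT aged and the sign was turned, so that every value is the group named first over the second. Group means assume equal group sizes. Exon lengths are from GENCODE M21 (GRCm38), a different build from the submitters', as are the gene order and promoters from RefSeq, so coordinates belong to GRCm38.p6.

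The members, the 11 further lists with 112 genes and the tests were chosen with earlier results of these data known, and the 18 neighbours by gene order, the exon lengths and the choice of promoters were settled after the values were seen. The genes named were the members, Slc24a4, up to 4 called genes of each list by adjusted p, the 3 genes nearest in pattern and neighbours of Slc24a4; some further listed genes are named to complete a count. The Wald test of the difference was tested on simulated data. Alternatives were a stricter threshold, Bonferroni adjustment, a minimum fold change or level, and fold changes rebuilt from p and SE. The scripts ran in Python 3.11.15 with SciPy 1.17.1, pandas 2.3.3, matplotlib 3.10.9 and NumPy 2.4.6.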

Additional observations from a re-analysis of the deposited data

Results flagged for a closer look

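Pmp22, a myelin protein gene on the Schwann cell list that is also expressed outside nerve, was listed in all 3 tables. Its ageing effect was -0.24 (SE 0.10) in KO and -0.54 (SE 0.07) in WT aorta in the authors' deposited tables. The difference of 0.30 (SE 0.12) passed the Wald test over 438 genes with an adjusted p of 0.0449, and not with the fold changes rebuilt from p and SE (adjusted p = 0.0837) or moved by their rounding error (adjusted p = 0.056). Of the elastic fibre genes only Mfap2 entered this test, and its difference did not pass.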

How the results depend on the processing

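With Bonferroni adjustment over the tested genes, 2 members stayed called in WT ageing, 4 in KO young against WT aged and 0 in KO ageing by the authors' p, against 4, 7 and 4 as deposited. The 4 in KO ageing had unadjusted p-values between 1.24e-05 and 0.00629. A minimum absolute log2 fold change of 0.5 left 4 members in KO young against WT aged and 0 in KO ageing. An adjusted p under 0.01 left 3, 7 and 3. A minimum mean of 50 could change no count, since all listed members lie above it. Rebuilt from p and SE, which keeps the sign by the way it is computed, the 15 member values were 1.06 to 1.62 times as large. The difference for Mfap2 was 0.39 when rebuilt, and did not pass. The rounding error was applied only to make the difference smaller, giving 0.43, and Bonferroni adjustment is stricter than the one already failed. Neither of these could have made it pass, and neither did. No paired analysis was possible because the tables hold no values per library, and leaving out libraries was not run for the same reason.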
